A study of Caenorhabditis elegans with 2 samples.

Results

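The genes described here carry the names of the protein factors that start and extend translation and of the enzymes that load transfer RNAs. They were all protein-coding genes of the WBcel235 annotation whose name begins with eif-, eef-, ife- or ifg-, or is 1 letter followed by ars- and a number. This rule gave 69 of 19985 protein-coding genes, namely 31 initiation genes, 6 elongation genes and 32 aminoacyl-tRNA synthetase genes. The rule reads gene names and no measured value, so the classes follow names, and the function of each gene was not checked.

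The data are a ChIP-seq (chromatin immunoprecipitation and sequencing) experiment on eGFP-tagged PAX-1, a paired-domain transcription factor, in late Caenorhabditis elegans embryos. The strain was OP117, which carries the unc-119(ed3) III mutation and the transgene wgIs117, and animals of both sexes were pooled as whole organisms, so no cell type is resolved. There was 1 group with 2 biological replicates and no untagged group. Read counts were not among the files, so the depth of each replicate is unknown.

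Initiation factors bring the initiator tRNA and the mRNA to the small ribosomal subunit. Elongation factors then deliver charged tRNAs and move the ribosome along. Synthetases attach each amino acid to its tRNA. Protein synthesis is needed in all cells, and some of these proteins have several gene copies, such as the eEF1A and eIF4E genes.

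A gene was counted as having a peak when a summit lay within 1000 bp of any of its annotated transcript starts. The authors' thresholded list held 714 peaks on the ce11 build, which were the 714 highest of the 30000 pooled peaks by signal value. Replicate 1 had a list of 30000 peaks and replicate 2 one of 29397. No source states the scale of the authors' signal value, so ranks are given within each list, with 1 as the highest.

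The DNA under 4 of the thresholded peaks is shown first, with at least 1 peak of each class and, for elongation, a high and a low one. The sequences are the parts of the 151 bases around each summit that lie in no annotated exon, on the strand of the named gene, from the RefSeq sequence of WBcel235 (ce11). The peaks at eef-1A.1 (chrIII:6972086-6972186, minus strand), eif-3.B (chrII:14795052-14795202, plus strand), ears-2 (chrIV:390469-390559, minus strand) and eef-1B.2 (chrIV:15037103-15037253, plus strand) are given. Capitals mark any of the 6 motifs searched, read on either strand. They were AGAGAC, together with GAGACG, further the motif GACGCA, the motif GCGCGC, the repeat GAGAGA, and finally TCACGC. Only the eef-1A.1 window holds one of them, GAGAGA.
eef-1A.1: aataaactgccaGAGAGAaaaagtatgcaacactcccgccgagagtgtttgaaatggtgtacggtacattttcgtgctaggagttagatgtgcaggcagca
eif-3.B: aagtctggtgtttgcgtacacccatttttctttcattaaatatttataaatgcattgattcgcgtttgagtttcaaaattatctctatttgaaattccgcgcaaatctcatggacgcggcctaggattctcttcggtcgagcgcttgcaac
ears-2: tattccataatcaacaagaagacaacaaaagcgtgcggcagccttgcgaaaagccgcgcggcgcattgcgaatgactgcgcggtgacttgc
eef-1B.2: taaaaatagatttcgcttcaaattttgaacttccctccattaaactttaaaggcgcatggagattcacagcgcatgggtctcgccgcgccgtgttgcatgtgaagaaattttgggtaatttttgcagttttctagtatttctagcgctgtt

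Of the 69 translation genes, 11 had a thresholded peak (15.9%), against 3.55% of all protein-coding genes (709 of 19985). The 3 classes had different shares: 3 of 6 elongation genes, 6 of 31 initiation genes (19.4%) and 2 of 32 synthetase genes (6.25%). With 1 group of samples and gene lists of this size, the classes were compared by counts only and no difference between them was tested. The 11 peaks had signals of 60.3 to 191.0 with a median of 70.1, in a list that ran from 58.3 to 1574 with a median of 75.01. So most of these genes sat in the middle and lower part of the thresholded list, and eef-1A.1 alone ranked within the first 100. In the upper part of the list, the 357 highest peaks, 5 of 69 members (7.25%) had a peak, against 1.74% of all genes.

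The same order of classes held at most depths of the pooled list. Among the 1500 highest pooled peaks, 4 of 6 elongation genes (66.7%), 8 of 31 initiation genes (25.8%) and 7 of 32 synthetase genes (21.9%) had one, against 6.94% of all genes. Among the 5000 highest the shares were 83.3%, 58.1% and 31.2%, against 16.9%. The full pooled and replicate lists mix peaks with background. Over all 30000 pooled peaks the median −log10 q was 0.0382, against 1.85 for the thresholded peaks, so most entries are weak. In this full list, 52 of 69 members (75.4%) had a peak, against 52.6% of all genes. The full replicate lists gave 57 of 69 members (82.6%) in replicate 1, against 52.2% of all genes, and 56 of 69 (81.2%) in replicate 2, against 53.5%. In the pooled list the initiation genes reached 27 of 31 (87.1%), the elongation genes 5 of 6 (83.3%) and the synthetases 20 of 32 (62.5%). The median rank of the highest pooled peak was 568 for elongation, 3864 for initiation and 5700 for synthetase genes that had one, against 9960 for all genes that had one.

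**Figure D1:**
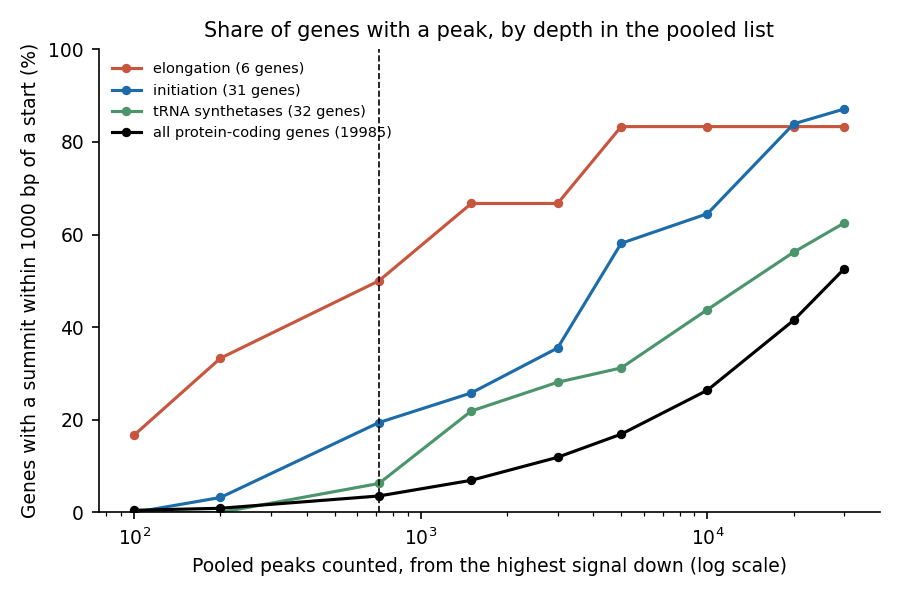
The share of genes (percent) with a summit within 1000 bp of a start, against the number of pooled peaks counted from the highest signal down (log scale), for the 3 classes and for all protein-coding genes. At the dashed line, the 714 peaks of the thresholded list, 3 of 6 elongation genes have a peak, and the shares are 19.4% for initiation and 6.25% for synthetase genes, against 3.55% for all genes.

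The elongation genes ranged from high peaks to weak or no peaks. eef-1A.1 encodes eEF1A, the GTPase that brings charged tRNAs to the ribosome. Its peak (chrIII:6972053-6972180, 128 bp wide) had a signal of 191.0 and rank 21. The summit was intergenic and lay 399 bp upstream of the start. Around the summit, only the bases from 6972086 to 6972186 lay in no annotated exon, so the peak partly overlapped an exon. The gene of that exon was not looked up. The peak was also high in both replicates. It was at rank 12 with a signal of 127.1 in replicate 1 and at rank 41 with a signal of 63.1 in replicate 2. The nearest protein-coding start was that of rfc-4, a clamp loader subunit of DNA replication, at 142 bp on the other strand. The peak thus sits between the starts of a divergent pair. The exon it partly overlaps lies outside both genes, since eef-1A.1 spans 6970026 to 6971712 and rfc-4 starts beyond the summit. A further annotated gene, not named here, therefore lies under part of the peak.

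eef-2 encodes the factor that moves the ribosome by one codon. Its peak on chromosome I (9163352 to 9163695) had a signal of 103.4 and rank 140. The summit lay 7 bp upstream of the eef-2 start and 258 bp upstream of the start of clsp-1. It ranked 74 in replicate 1 (signal 84.2) and 519 in replicate 2 (signal 28.8), so both replicates held it among their 714 highest peaks.

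eef-1B.2, which encodes a subunit of the exchange factor that reloads eEF1A with GTP, had a lower peak on chromosome IV (15037006 to 15037349, signal 63.8, rank 568). Its summit lay 153 bp upstream of the start. The replicate ranks of 1050 (signal 33.8) and 977 (signal 24.8) were close to each other, and both fell outside the 714 highest of their lists. The second eEF1A gene, eef-1A.2, had a pooled peak at rank 804 with a signal of 55.8, just under the lowest thresholded signal of 58.3. For it and for other genes without a thresholded peak, replicate ranks are those of the gene's own highest peak within 1000 bp. For eef-1A.2 these were 617 in replicate 1 and 1257 in replicate 2. Its summits lay 349 bp upstream in the pooled list, 341 bp in replicate 1 and 658 bp in replicate 2. The other eEF1 genes were far lower. eef-1B.1 had a pooled peak at rank 4480 (ranks 3767 and 26220 in replicates 1 and 2). eef-1G, which encodes the gamma subunit, had no pooled peak and a single peak at rank 12928 in replicate 1.

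In the thresholded list, the initiation peaks fell almost entirely on one complex, and less so in the replicates taken alone. eIF3 is the many-subunit scaffold that holds the small ribosomal subunit during initiation. Of its 11 genes named eif-3, 5 had a thresholded peak (45.5%), against 3.55% of all genes, and the sixth and last initiation gene with one was ifg-1. None of the 3 eIF2 genes, the 5 eIF2B genes or the 5 eIF4E genes (ife-) had one, nor had any of the 6 remaining initiation genes. The complexes were set apart after the values were seen, so these counts are a description of the members.

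eif-3.B, a core subunit of eIF3, had the highest of these peaks, on chromosome II (14794955 to 14795298, signal 100.1, rank 155). The summit lay 277 bp upstream, with no other protein-coding start within 1000 bp. It ranked 129 in replicate 1 (signal 71.4) and 835 in replicate 2 (signal 25.7). eif-3.C had a peak on chromosome I (9979744 to 9980087) with a signal of 82.9 and rank 273, 254 bp upstream of its start. Of the 11 peaks it was the most alike between replicates in rank, at 304 (signal 52.1) and 316 (signal 33.6).

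eif-3.E and eif-3.I had peaks on chromosome I that stood higher in replicate 2. The eif-3.E peak (10642295 to 10642638, signal 70.1, rank 435) lay 186 bp upstream and ranked 1391 in replicate 1 (signal 29.8) and 452 in replicate 2 (signal 30.02). The eif-3.I peak (2485457 to 2485800, signal 69.0, rank 462) lay 232 bp upstream and ranked 804 (signal 37.6) and 568 (signal 28.1). Both were shared with a divergent neighbour, B0511.17 at 562 bp and abtm-1 at 238 bp.

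eif-3.J and ifg-1 had the farthest summits. eif-3.J encodes a loosely bound eIF3 subunit, and its peak on chromosome I (13434424 to 13434767, signal 67.8, rank 484) lay 893 bp upstream, in the 3′ UTR of slc-25A46. It ranked 352 in replicate 1 (signal 49.6) and 2056 in replicate 2 (signal 21.04), where the summit was 170 bp away from the thresholded one. ifg-1 encodes eIF4G, the scaffold that joins the cap-binding protein to the ribosome. Its peak on chromosome II (8216404 to 8216747, signal 60.3, rank 655) lay 646 bp upstream of the nearest ifg-1 start and inside the 5′ UTR of M110.3, whose start was 40 bp away. It ranked 386 in replicate 1 (signal 48.01) and only 8035 in replicate 2 (signal 15.2). With starts counted within 500 bp, neither gene had a thresholded peak and 4 of 31 initiation genes had one (12.9%), against 2.79% of all genes at that distance.

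The other initiation genes had lower peaks. eif-3.H came nearest to the thresholded list, at pooled rank 1072 (signal 49.9) and replicate ranks of 959 and 3245. eif-2Bgamma, a subunit of the exchange factor that recycles eIF2, was at pooled rank 1369 (signal 44.8), with replicate ranks of 1289 and 6096. Its replicate 1 summit lay 984 bp upstream, far from those at 287 bp in the pooled list and 350 bp in replicate 2. eif-2gamma, the GTP-binding subunit of eIF2, was at pooled rank 1857 (signal 39.7), and its replicates differed widely, at rank 20008 in replicate 1 and rank 514 in replicate 2. eif-2Bbeta also reached the 714 highest peaks of replicate 2, at rank 711, and ranked 18443 in replicate 1. The cap-binding genes ife-1 to ife-5 had pooled ranks between 2095 (ife-2) and 18579 (ife-1). No pooled peak was found at eif-2Bepsilon, eif-2D, eif-3.K or eif-3.L.

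**Figure D2:**
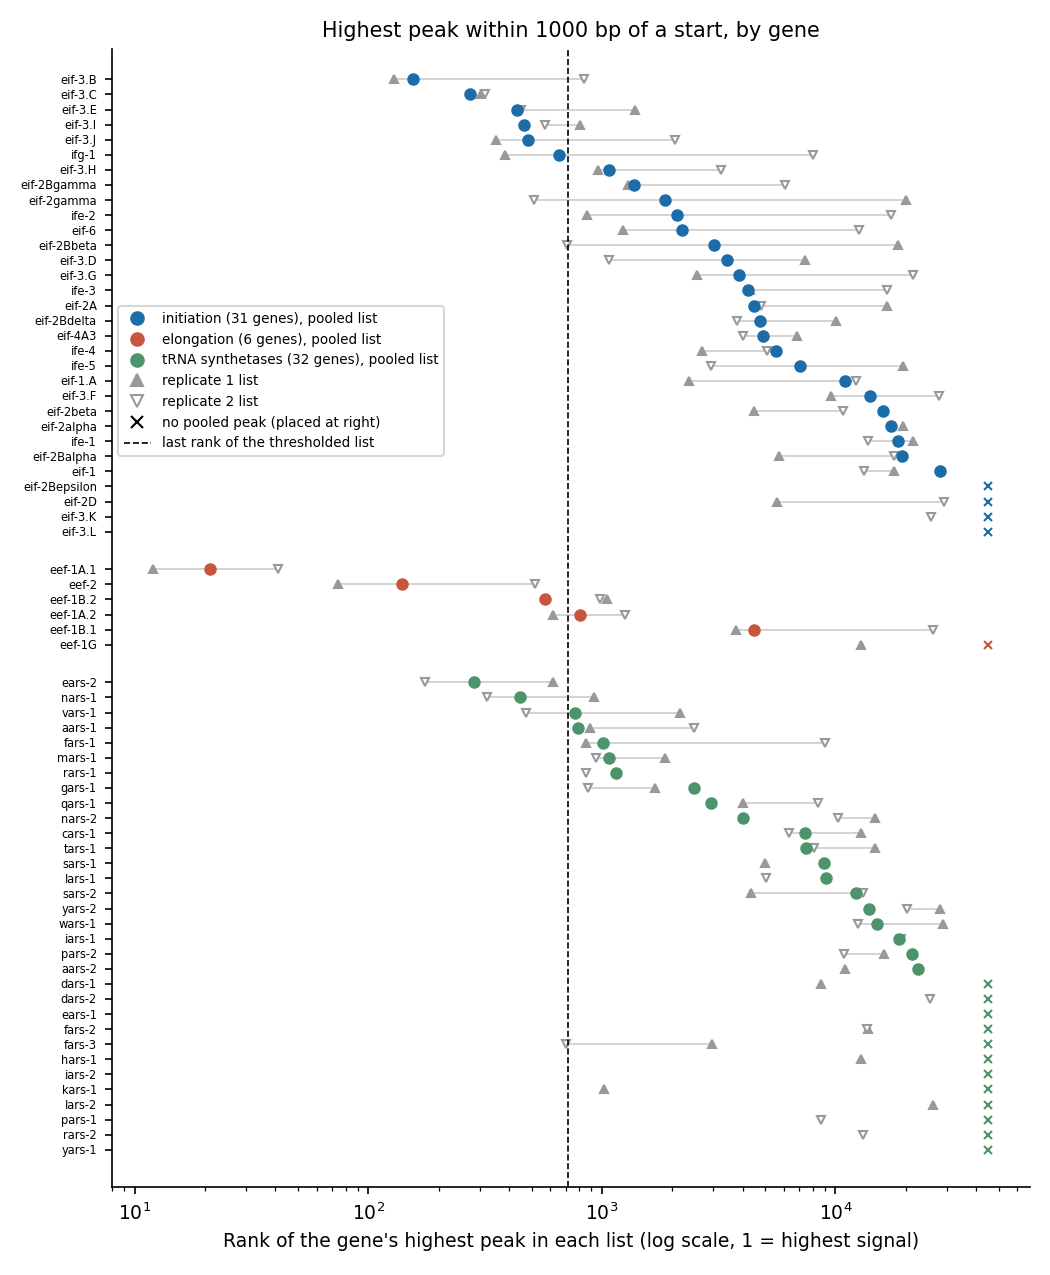
The rank of each gene's highest peak within 1000 bp of a start (log scale, 1 is the highest signal) in the pooled list (coloured circles) and in the replicate 1 and replicate 2 lists (triangles), for all 69 members by class. Circles left of the dashed line are the 11 thresholded peaks; crosses at the right mark the 17 genes with no pooled peak.

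Synthetase genes had the lowest share of thresholded peaks of the 3 classes, 2 of 32 (6.25%), against 3.55% of all genes. ears-2 encodes a glutamyl-tRNA synthetase and carries the number that usually marks the mitochondrial enzyme. Its peak on chromosome IV (390332 to 390675) had a signal of 82.0 and rank 283. The summit lay 36 bp upstream of the ears-2 start and 56 bp upstream of the start of uncp-18 on the other strand. Both replicates held it among their 714 highest, at rank 616 (signal 41.5) and rank 174 (signal 39.99). nars-1, the asparaginyl-tRNA synthetase gene, had a peak on chromosome I (7090207 to 7090550, signal 69.7, rank 446) between its own start, at 317 bp, and that of nduf-6, at 361 bp. It ranked 923 in replicate 1 (signal 35.6) and 322 in replicate 2 (signal 33.4).

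Several synthetase genes came close to the thresholded list. vars-1, for valine, was at pooled rank 768 (signal 56.9), with replicate ranks of 2160 and 475, and its summit lay 99 bp inside the gene. aars-1, for alanine, was at pooled rank 790 (signal 56.3) and replicate ranks of 888 and 2486. fars-1, for phenylalanine, was at pooled rank 1011 (signal 51.2) and replicate ranks of 858 and 9062. Of the 20 genes numbered 1, 14 had a pooled peak (70.0%, median rank 2697), and of the 11 numbered 2, 6 had one (54.5%, median rank 13138), against 52.6% of all genes with a median rank of 9960. The genes numbered 2 thus had a share near that of all genes. By the 2 structural classes of the enzymes, 10 of 15 class I genes (66.7%) and 10 of 17 class II genes (58.8%) had a pooled peak, against the same 52.6%, and each class had 1 thresholded peak. The 12 synthetase genes with no pooled peak were dars-1, dars-2, ears-1, fars-2, fars-3, hars-1, iars-2, kars-1, lars-2, pars-1, rars-2 and yars-1. Whether the pooled list as analysed holds every peak the authors called is not known, and fars-3 had a peak in both replicates, at ranks 2973 and 703.

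The replicates shared some of these peaks among their highest and differed on others. Of the 11 thresholded peaks, 7 overlapped one of the 714 highest peaks in replicate 1 and 7 in replicate 2, and 4 (36.4%) did so in both, at eef-1A.1, eef-2, eif-3.C and ears-2. Among all 714 thresholded peaks the share in both was 41.7%. Where the overlapping peaks were found, their summits moved by at most 26 bp in replicate 1 and 170 bp in replicate 2.

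Taking each replicate alone gave different genes. By the 714 highest peaks of replicate 1, 8 of 69 members had a peak (11.6%), against 3.45% of all genes, and by those of replicate 2, 11 of 69 (15.9%), against 3.35%. Both lists held 4 members (5.80%), against 1.54% of all genes. Replicate 1 alone added eef-1A.2 to the thresholded members. Replicate 2 alone added eif-2Bbeta, eif-2gamma, fars-3 and vars-1. The synthetase count was 1 of 32 in replicate 1 and 4 of 32 in replicate 2, so it depends on the replicate.

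**Figure D3:**
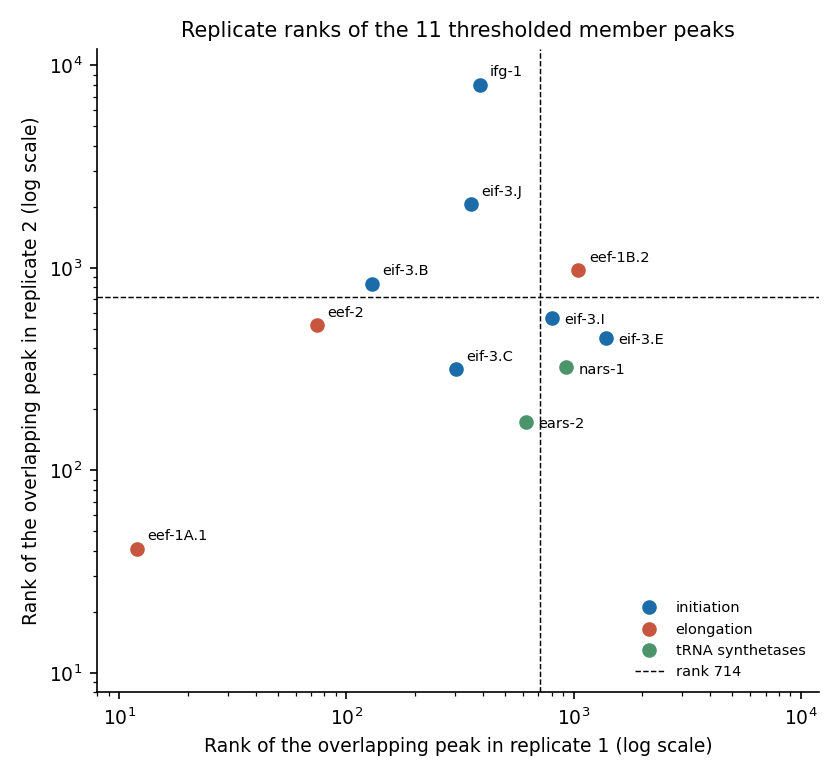
The rank of the highest overlapping peak in replicate 1 (x, log scale) and replicate 2 (y, log scale) for each of the 11 thresholded member peaks, with dashed lines at rank 714. eef-1A.1, eef-2, eif-3.C and ears-2 lie inside both lines, and eef-1B.2 lies outside both.

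The summits lay in front of the genes. All 11 thresholded summits were upstream of the member's start, at a median of 254 bp, and 9 were intergenic. Another protein-coding start was within 1000 bp of 7 of them, and the member's start was the nearest for 9, with eef-1A.1 and ifg-1 as the exceptions. No such counts over all thresholded peaks stand beside these, so they describe the 11 peaks and not a trait particular to them. When only the gene with the nearest start was counted, 9 of 69 members had a thresholded peak, against 2.38% of all genes. Among the 52 members with any pooled peak, the highest one was upstream in 44 (84.6%), against 65.8% of all genes with a pooled peak. Members had a median of 2 distinct annotated starts and all genes a median of 1, and with only the outermost start of each gene the count stayed at 11 of 69, against 3.35%.

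**Figure D4:**
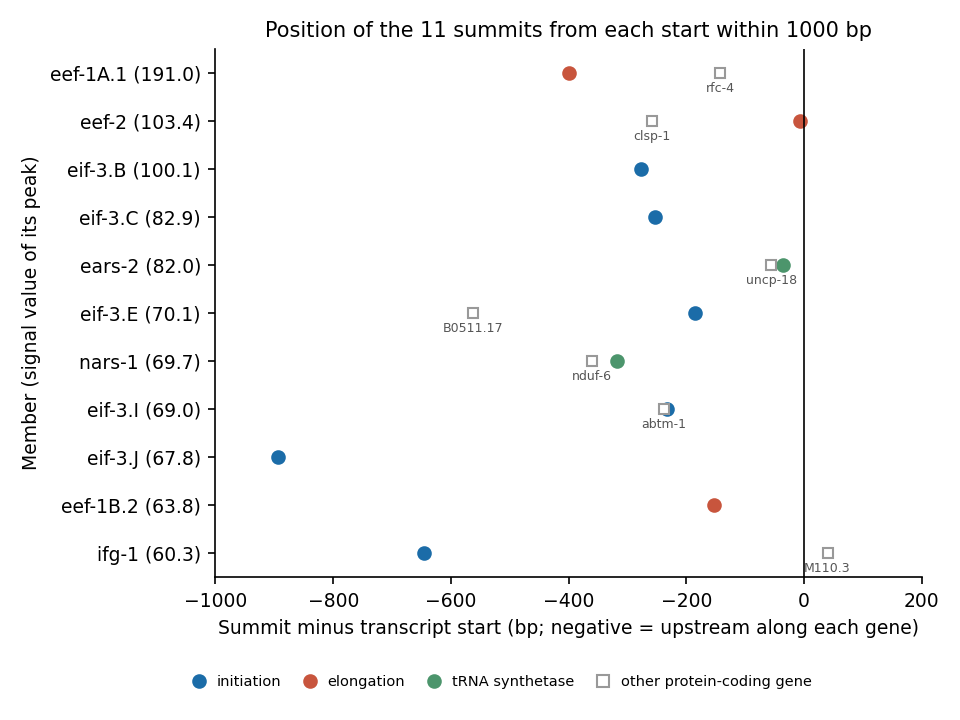
The distance in bp from each transcript start within 1000 bp to the summit (negative is upstream along the gene) for the 11 thresholded member peaks, from the highest signal at the top to the lowest. Filled circles are members and open squares other protein-coding genes. All members lie left of 0, and 7 of the 11 peaks are shared with another gene.

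Divergent promoters were common among these genes. A start on the other strand lay within 1000 bp upstream of 29 of 69 members (42.0%), against 18.3% of all protein-coding genes. Of these 29, 7 had a thresholded peak (24.1%), against 9.79% of all genes with such a neighbour. Of 22 members with neither such a start nor a close gene upstream, 2 had one (9.09%), against 2.05% of all genes with that layout. In both layouts the members' share was above that of all genes. The second rests on 2 peaks, at eif-3.B and eif-3.J, and eif-3.J was lost with starts counted within 500 bp.

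Many C. elegans genes lie in operons, where genes follow each other closely on one strand and share a promoter. Operons are not in the annotation used here, so a gene was called close behind another when a same-strand gene ended within 500 bp upstream. This held for 18 of 69 members (26.1%), against 18.1% of all genes, and for 11 of the 32 synthetases (34.4%). Of the 18, 2 had a thresholded peak (11.1%), against 2.57% of all genes so placed, and none of the 11 synthetases had one. The 2 were eif-3.C and eef-1B.2, whose summits lay 254 and 153 bp upstream, inside the gaps of 401 and 295 bp to sys-1 and fcd-2. Following each run up to its first gene, a thresholded peak was found at the first gene of 2 of the 18 members (11.1%), namely phb-1 in front of eif-2alpha and prp-19 in front of gars-1, against 8.26% of all genes so placed.

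The members lay unevenly over the chromosomes. Chromosome I held 21 of the 69 members, against 2878 of all 19985 protein-coding genes. It held 6 of the 11 members with a thresholded peak, against 174 of the 709 genes with one. The share with a thresholded peak there was 28.6% of members, against 6.05% of all genes on that chromosome. The shares were 2 of 16 on II (12.5%, against 3.42%), 1 of 11 on III (9.09%, against 5.23%) and 2 of 10 on IV (20.0%, against 3.32%). None of the 8 members on V or the 3 on X had one, against 2.00% and 2.12% of all genes there.

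The base composition at the members' summits was close to that of other high peaks. The 151 bases around the 11 thresholded member summits had a median G+C of 44.4% (range 30.5% at nars-1 to 50.3% at ears-2), against 43.05% for all 490 thresholded peaks near a start. The 41 lower pooled peaks of members had a median of 33.1%, against 32.5% for all lower pooled peaks near a start.

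Of the 11 member windows, 6 held 1 of the 6 motifs and 5 held none. AGAGAC occurred in 1 of 11 (9.09%, at ifg-1), against 26.9% of all thresholded peaks near a start, and GAGACG in 0, against 25.7%. GACGCA occurred at eif-3.C (9.09%, against 21.6%), GCGCGC at eif-3.E (9.09%, against 15.1%) and GAGAGA at eef-1A.1 (9.09%, against 28.2%). TCACGC, a stretch found in binding sites of mammalian Pax proteins, occurred at eef-2 and eif-3.I (18.2%, against 6.53%). In the 151 bases before the start of every protein-coding gene the shares were 7.70% for AGAGAC, 5.73% for GAGACG, 4.43% for GACGCA, 1.88% for GCGCGC, 12.9% for GAGAGA and 3.22% for TCACGC. In sequence, AGAGAC overlaps the repeat GAGAGA on one side and the motif GAGACG on the other, which in turn overlaps with GACGCA. With 11 windows, 1 window more or less moves a share by 9.09 percentage points, and a match is not a binding site.

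Other translation genes, whose names fall outside the rule, were taken from a list of 30 names, 27 of which matched an annotated symbol. Of these, 5 had a thresholded peak (18.5%), against 3.55% of all genes. Matched without one were inf-1, iff-1, abcf-1, abcf-3, abce-1, pab-2, gcn-1, gcn-2, pek-1, erfa-1, rack-1 and rsks-1. So were let-363, daf-15, efk-1, clu-1, gfm-1, tsfm-1, tufm-1, tufm-2, larp-1 and ncbp-1. The share depends on which names were listed. drr-2, an eIF4H-like factor, had the highest, with a signal of 142.2 and rank 60, 194 bp upstream of its start. iff-2, one of the eIF5A genes, had a signal of 113.9 and rank 107. abcf-2, of the ABC-F family, had 91.1 and rank 214, with its summit 857 bp upstream. erfa-3, a release factor gene, had 86.9 and rank 243, and pab-1, a poly(A)-binding protein gene, 73.8 and rank 375. Each of these summits had another protein-coding start within 1000 bp, set-16 for drr-2 and the ribosomal protein gene rpl-30 for pab-1 among them. The eIF4A gene inf-1 had no thresholded peak and was at pooled rank 1681. Further eIF3 subunit genes with other names, egl-45 and cif-1, were looked up after the other values were seen, and neither had a thresholded peak. cif-1 had no peak in any list. The highest pooled peak of egl-45 was at rank 1249 (signal 46.5), with ranks of 2322 and 507 in replicates 1 and 2.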

How the data were processed

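The starting point was 4 peak lists on ce11 in the narrowPeak layout. Per the deposited file listing, the replicate and pooled lists mix peaks with background and were called against a control alignment (not analysed here) to feed a test of replicate reproducibility (IDR). The thresholded list, called optimal by the authors, came out of that test. No source used here names the aligner, the peak caller or the IDR threshold. The signal value (column 7) and the −log10 q (column 9) are the authors' deposited values. The −log10 q was 1.85 for all thresholded peaks, so peaks were ranked by signal within each list. Depth is unknown, and no interval was computed.

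Starts came from Ensembl release 115 and sequence from RefSeq, both of WBcel235, which is ce11. The ce10 lists were not used, since coordinates were not converted. Every gene with a start within 1000 bp of a summit was counted, so 1 peak can count for several genes. Replicate overlap needed at least 1 bp. The labels give each replicate a biological replicate number and a biosample record of its own.

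The members and lists were chosen with earlier results of these data known, and no test was run: lists are described by counts beside the same counts over all protein-coding genes. Named were all members with a thresholded peak, the 3 next members of each class by pooled signal, members with no pooled peak, genes sharing a member's peak, other translation genes with a peak, and genes gained in 1 replicate. Any further gene was picked with its values in view. Of the other translation list, etf-1, iftb-1 and selb-1 matched no symbol. The assignment step was tested on simulated summits. Alternatives changed the distance, the start used, the threshold and the replicate. Python 3.11.15, numpy 2.4.6, pandas 2.3.3 and matplotlib 3.10.9 were used.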

Additional observations from a re-analysis of the deposited data

How the results depend on the processing

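With the 357 highest thresholded peaks, 5 members, 2 initiation genes and 1 synthetase gene had a peak, and the share of all protein-coding genes was 1.74%. Leaving out a replicate gave 8 to 11 members with a peak among the highest of the other, 4 to 5 initiation, 2 to 3 elongation and 1 to 4 synthetase genes, and 3.35% to 3.45% of all genes. Under the other distances, starts and assignments the counts stayed within 1.5 times those reported, from 9 to 13 of 69 members. The share of all protein-coding genes moved too. With starts within 500 bp, 9 of 69 members had a peak, against 2.79% of all genes. By the nearest start it was 9 of 69, against 2.38%, and within 2000 bp 13 of 69, against 4.98%. Starts within 2000 bp added eif-2alpha and iars-2. The peaks at eef-2, eif-3.C and ears-2 were kept under all 8 alternatives, that at ifg-1 under 4. The windows of 50 and 100 bp on each side changed the motif count of TCACGC only, to 1 with 50 bp. No paired analysis was possible because the series has 1 group. Unknown depth limits what a missing peak means: it is not shown to be absent binding.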

Other observations

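At fars-3, one of the phenylalanyl-tRNA synthetase genes, both replicates had a peak, and the pooled list as analysed here had none within 1000 bp. Whether that list holds every peak the authors called is not known, so the counts below describe the lists and not these genes. The summits lay 152 bp (rank 2973, signal 21.1) and 161 bp (rank 703, signal 26.6) upstream of its start in replicates 1 and 2. Of 1039 protein-coding genes with a peak at rank 3000 or better in both replicate lists, 5 had no pooled peak within 1000 bp (0.481%), and fars-3 was the only one of the 16 such members. At any rank, this held for eif-2D, fars-2 and fars-3 among 49 members, and for 617 of 7173 genes (8.60%). kars-1, a lysyl-tRNA synthetase gene, had a peak at rank 1023 in replicate 1, 386 bp upstream, and none within 1000 bp in the pooled or replicate 2 list. rars-1, for arginine, had the opposite pattern, with rank 855 in replicate 2, pooled rank 1153 and no peak in replicate 1.

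A peak in all 3 full lists, which mix peaks with background, was found at 46 of the 69 members (66.7%). This compares with 32.8% of all protein-coding genes. No list held a peak at 5 members (7.25%), against 28.1% of all protein-coding genes.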
